A study of Mus musculus with 31 samples.

Results

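The mechanically gated channel Piezo2 and the calcium channels and pump of egg activation were followed in 2-cell mouse embryos generated with control or energy-restricted sperm. The group holds 10 genes of the 20544 gene symbols in the deposited count table, chosen by name with earlier results of these data known. They are Piezo1, Piezo2, Trpm7, Trpv3, Cacna1h, Stim1, Stim2, Orai1, Itpr1 and Atp2a2. Piezo2 is among the genes that the study picked out on these same embryos, so its difference between groups is not independent evidence here.

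At fertilization the sperm delivers phospholipase C zeta, the product of Plcz1, which makes inositol trisphosphate and opens the type 1 inositol trisphosphate receptor (Itpr1) on the endoplasmic reticulum, so that cytosolic calcium oscillates. The SERCA2 pump (Atp2a2) returns calcium to the store, and influx across the plasma membrane, for which TRPM7, TRPV3, the T-type channel CaV3.2 (Cacna1h) and the STIM and ORAI proteins have been studied in eggs, keeps the oscillations going. PIEZO1 and PIEZO2 are cation channels opened by membrane stretch or touch, known from blood vessels and red cells and from sensory neurons, respectively.

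The 31 libraries were single embryos, 16 control- and 15 SER-generated, all labelled WT. Sperm came from C57BL/6J males 12 to 14 weeks old and eggs from superovulated CD1 females 8 to 10 weeks old. One cauda epididymis of a male was placed in IVF-TYH +/+ (control), a medium with glucose and pyruvate, and the other in IVF-TYH −/− (SER, sperm energy restriction and recovery), which lacks both, until motility was lost after 15 to 45 min. Both sperm samples were then given IVF-TYH +/+, inseminated the eggs for 4 h, and the embryos were grown in KSOM and collected 32 h after insemination. Embryos of an insemination can share parents and neither the labels nor the columns say which do, so p-values measure only the spread between these embryos. Each library is a whole hybrid embryo, in which maternal, paternal and stored egg RNA are counted together, and fewer cells that hold a transcript cannot be told apart from less RNA per cell.

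The counts on genes ranged from 532945 to 2085222 in control- and from 642321 to 3088396 in SER-generated embryos, and levels are given as CPM, the count divided by this total and multiplied by 1000000. A count of 0 allows up to 3 counts, or 5.63 CPM in the smallest control and 4.67 CPM in the smallest SER library, and covers counting error only. Oocyte markers, 12 of 12 in the table, summed to 2273 to 10953 CPM in control- and 1046 to 11559 CPM in SER-generated embryos, and zygotic activation markers, 13 in the table, to 13.6 to 1060 and 115 to 1115 CPM. Control replicate 4 and SER replicate 15 had the highest oocyte and the lowest zygotic sums of their groups, though both are labelled 2-cell at 32 h. Cumulus cell markers, 18 in the table, summed to 40.7 to 1807 and 42.0 to 314 CPM, and the 1807 CPM were those of control replicate 5, where Cyp11a1 had 927 counts. Sperm markers, 12 in the table with Acr and Crisp2 at 0 in every library, summed to 100 to 282 and 86.3 to 373 CPM. These sums were mostly Odf2, which averaged 174 and 189 CPM beside median sums of 182 and 186 CPM. The next highest sperm marker, Ldhc, averaged 12.2 and 7.65 CPM. The values below include these 3 libraries, and results without them are given where they differ.

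Piezo2 was at or near the limit of detection in control-generated embryos and was well covered in most SER-generated embryos. The gene sits at 63010213 to 63387183 of chromosome 18, minus strand (mm10, as for all positions given), and its exons cover 17162 bases. Among 16 control-generated embryos, 7 lacked a Piezo2 count, 8 had 1 to 3 counts, and replicate 14 had 49. Among 15 SER-generated embryos, replicates 6, 9 and 15 lacked a count, replicate 1 had 4, and the other 11 had 17 to 115. The embryos fell into a low class and a class of at least 17 counts, the latter with 1 control- and 11 SER-generated embryos, and no embryo lay between 4 and 17 counts.

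The Piezo2 level was 0, 0.94 and 54.7 CPM at the lowest, the median and the highest control embryo. In SER-generated embryos it was 0, 19.5 and 53.3 CPM. The groups overlapped at both ends: 12 of 15 SER-generated embryos were above the control median and 0 of 15 were above the highest control embryo. Without control replicate 14 the highest control embryo was at 3.90 CPM. Control replicate 14 also had the highest Cacna1h (163 CPM) and Atp2a2 (530 CPM) and the lowest Trpm7 (25.7 CPM) of the control group, with no count of Stim1, and its library of 894991 counts was close to the control median of 955806.5.

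The log2 fold change of Piezo2, SER minus control, was 2.46 (SE 0.79), with an unadjusted p of 0.00329 and a Benjamini-Hochberg adjusted p of 0.111 (edgeR, quasi-likelihood). It therefore missed the threshold of an adjusted p under 0.1 in the fit of all genes with a count, where it ranked 529 of 17803 genes by p. The biological coefficient of variation of Piezo2 was 1.46, second among the 10 genes to that of Trpv3 (1.95). Leaving out control replicate 14 gave a log2 fold change of 4.54 and an adjusted p of 0.00438, where 2.52% of all genes were called. The adjusted p was also under 0.1 without SER replicate 15 (0.0631), 9 (0.0897), 6 (0.0898) or 1 (0.0995), where 3.21%, 2.48%, 2.96% and 2.54% of genes were called. These 5 embryos run against the difference: the only control with at least 17 counts, and the SER embryos with 0 to 4. Leaving them out lowers p by construction, so these fits are no support. Over the 31 fits that each leave out an embryo, the log2 fold change was 2.32 to 4.54 and the adjusted p 0.00438 to 0.159. Piezo2 was also called without the 3 libraries that stand apart by their markers (2.44, adjusted p = 0.0995), with limma voom (2.91, adjusted p = 0.0585), with clusters of embryos estimated from the data (3.54, adjusted p = 0.0230) and with 5 surrogate variables (4.29, adjusted p = 0.0133), fits that called 2.79%, 0.455%, 2.07% and 1.68% of all genes. A block for replicate number, whose meaning the labels do not state, also called it, in a fit that called 7 of 17803 genes. The 3 libraries that stand apart, control replicates 4 and 5 and SER replicate 15, held 0, 2 and 0 Piezo2 counts. As SER replicate 15 is among the 5 embryos that run against the difference, the fit without these 3 libraries is no support either. Piezo2 was not called with a count required in at least 10 embryos (adjusted p = 0.476), with ComBat-seq on the clusters and DESeq2 (2.44, adjusted p = 0.253) or with the library total as a covariate (2.71, adjusted p = 0.224). Nor was it called after thinning (adjusted p = 0.104), with robust dispersion (0.113), with either of the other normalizations (0.118 and 0.120) or, at 0.111, at the stricter threshold of 0.05.

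In the plot of counts against depth, embryos without a Piezo2 count were found among both small and large libraries. Control replicates 2, 13 and 15, with 1557960 to 2085222 counts, had no Piezo2 count, while the smallest SER library, with 642321 counts, had 24. Among the 11 SER embryos with at least 17 counts, larger libraries tended to hold more Piezo2 counts. Replicate 5 had 17 in a library of 873051 counts, and replicate 14 had 115 in one of 2158512. The Piezo2 level, which is already scaled to library size, had a Spearman's rho of −0.04 with the library total. This was taken over the 31 embryos with group means removed, as a description. At least 1 Piezo2 count was present in 9 of 16 control embryos (Clopper-Pearson 95% interval 29.9% to 80.2%) and 12 of 15 SER embryos (51.9% to 95.7%). Had every library been thinned to 532945 counts, an expected 43.3% of control- and 78.2% of SER-generated embryos would have kept a Piezo2 count, a difference of 34.9 percentage points (2-sided permutation test with 100000 resamples, p = 0.0271). At the depth as deposited the difference was 23.8 percentage points and did not pass (permutation p = 0.307). Without the 3 libraries that stand apart it was 41.2 at equal depth (permutation p = 0.0104), from 83.8% of SER- and 42.6% of control-generated embryos. These 3 include SER replicate 15, which had no Piezo2 count, so leaving it out raises the SER share by construction. The permutation p-values are for 1 gene, picked out on these same embryos, and are not adjusted over genes. They are no independent support.

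**Figure D1:**
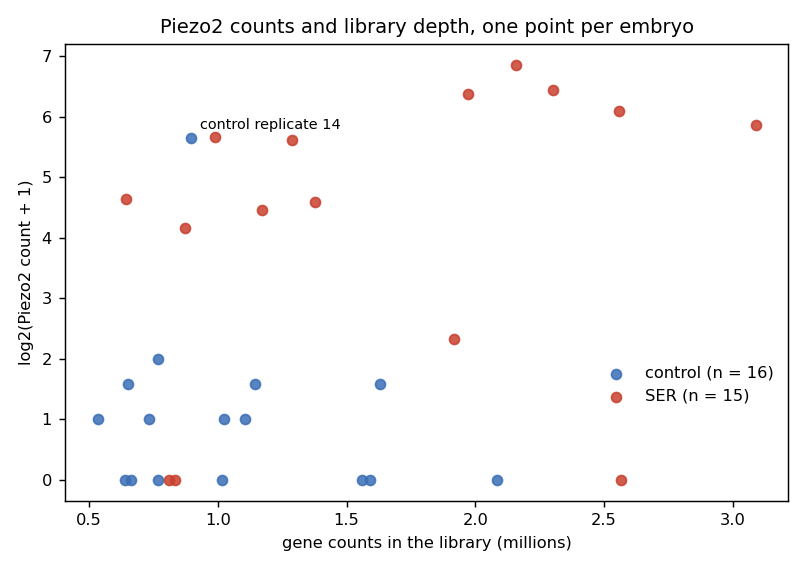
Counts of Piezo2 as log2(count + 1) on the vertical axis against the gene counts of the library on the horizontal axis, with 1 point per embryo, 16 control (blue) and 15 SER (red). The 11 SER embryos with 17 counts or more span libraries of 642321 to 3088396 counts, and control replicate 14, with 49 counts, is the only control embryo among them.

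Piezo1, the other member of the family, did not separate the groups. It sits at 122481698 to 122551329 of chromosome 8, minus strand, and 2441 of its 9935 exon bases overlap Ctu2 on the opposite strand, so that reads there can belong to either gene where counting ignored strand, which the sources used here do not state. Its level was 0, 11.3 and 40.7 CPM at the lowest, median and highest control embryo and 0, 14.0 and 38.2 CPM in the SER group. The ranges were nearly the same, and the log2 fold change was 0.18 (SE 0.61, adjusted p = 0.984, edgeR). Piezo1 lacked a count in 3 control embryos and 1 SER embryo.

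Of the TRP and voltage-gated channels, Trpm7 was counted in every embryo, Cacna1h in all but 1 and Trpv3 in fewer. Trpm7, a channel for calcium, magnesium and zinc with a kinase at its end, sits at 126791565 to 126876230 of chromosome 2, minus strand. Its level was 25.7, 96.4 and 219 CPM at the lowest, median and highest control embryo and 61.3, 131 and 356 CPM in the SER group. The groups overlapped over most of their range, with 1 SER embryo above the highest control. The SER minus control log2 fold change of Trpm7 was 0.42 (SE 0.26, adjusted p = 0.918).

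Trpv3, a cation channel that in skin responds to warmth, sits at 73267388 to 73300363 of chromosome 11, plus strand. It was counted in 8 of the 16 control embryos and 7 of the 15 SER embryos, with at most 7 counts in a control embryo and 87 counts in SER replicate 13. Its highest levels were 11.3 and 37.8 CPM, with medians of 1.30 and 0 CPM. The log2 fold change of 0.38 (SE 0.93, adjusted p = 0.942) rested on SER replicate 13, without which it was −1.38 (adjusted p = 0.639).

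Cacna1h, the pore of the low-voltage T-type channel CaV3.2, sits at 25374285 to 25433783 of chromosome 17, minus strand, with 158 exon bases over Tpsg1 on the opposite strand. Its level was 0, 56.3 and 163 CPM at the lowest, median and highest control embryo and 25.6, 65.2 and 131 CPM in the SER group. The SER-generated embryos lay inside the control range, and 12 of 15 were above the control median. The spread was narrower in the SER group, with a coefficient of variation of 38.5% against 69.1%, a difference that was not tested. The SER minus control log2 fold change of Cacna1h was 0.36 (SE 0.36, adjusted p = 0.958).

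**Figure D2:**
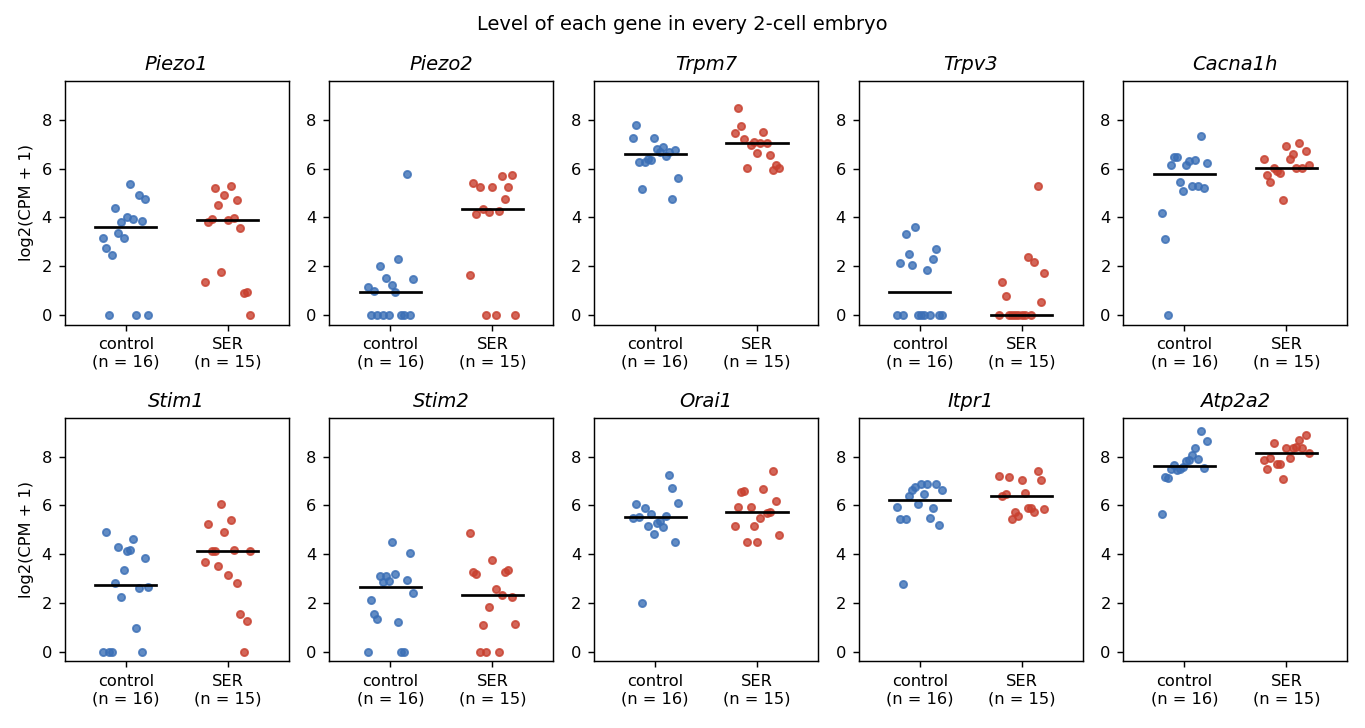
Level of each of the 10 genes as log2(CPM + 1), with 1 panel per gene, 1 point per embryo and a bar at the group median, for 16 control (blue) and 15 SER (red) embryos. In every panel the groups overlap, and in the Piezo2 panel most SER points lie above all control points but that of replicate 14.

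Of the genes of store-operated entry, the channel gene Orai1 was counted in every embryo and the sensor genes Stim1 and Stim2 were lower. Stim1, a sensor of calcium in the endoplasmic reticulum, sits at 102267806 to 102437319 of chromosome 7, plus strand. Its level was 0, 5.69 and 28.8 CPM at the lowest, median and highest control embryo and 0, 16.3 and 64.8 CPM in the SER group. Stim1 was at 0 in 4 control- and 1 SER-generated embryo, and 4 SER embryos were above the highest control. The log2 fold change of 1.01 (SE 0.63, adjusted p = 0.912) was the largest after Piezo2 and did not pass the test. Over the 31 embryos with group means removed, Stim1 had a Spearman's rho of −0.61 with the oocyte marker sum, 0.58 with the cumulus cell sum and 0.61 with the number of genes detected, and their part in its difference was not tested. As Amhr2 makes up much of the cumulus cell sum, that value need not reflect cumulus cells.

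Stim2, the second sensor, sits at 53998499 to 54121057 of chromosome 5, plus strand. Its level was 0, 5.32 and 21.8 CPM at the lowest, median and highest control embryo and 0, 4.05 and 28.1 CPM in the SER group. The ranges overlapped throughout, and the log2 fold change of 0.14 (SE 0.71, adjusted p = 0.971) was −0.30 without SER replicate 1, which held the highest level. Orai1, the plasma membrane pore that the sensors open, sits at 123015074 to 123030456 of chromosome 5, plus strand. Its level was 3.02, 44.5 and 151 CPM at the lowest, median and highest control embryo and 21.8, 52.8 and 171 CPM in the SER group. The lowest value was that of control replicate 4, with 2 counts, the highest that of SER replicate 13, and the groups overlapped over most of their range. For Orai1 the log2 fold change was 0.24 (SE 0.33, adjusted p = 0.968).

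The release channel and the pump of the store were present in every embryo. Itpr1 sits at 108213096 to 108551109 of chromosome 6, plus strand. Its level was 5.85, 74.7 and 118 CPM at the lowest, median and highest control embryo and 42.4, 82.1 and 167 CPM in the SER group. The lowest value, 6 counts, was in control replicate 3, the embryo without a count of Cacna1h, and 5 SER embryos were above the highest control. For Itpr1 the log2 fold change was 0.28 (SE 0.27, adjusted p = 0.958). Atp2a2 sits at 122453513 to 122502225 of chromosome 5, minus strand. Its level was 49.1, 196 and 530 CPM at the lowest, median and highest control embryo and 133, 285 and 479 CPM in the SER group. All SER embryos were below the highest control and 13 of 15 were above the control median, and the log2 fold change was 0.31 (SE 0.22, adjusted p = 0.935).

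All 10 log2 fold changes had a positive estimate, and none passed the test. Of the 7 genes that passed the filter on low counts, 0 were called higher, where 0 of 8571 tested genes (0%) were called by edgeR in either direction. At an unadjusted p under 0.05 there were 491 such genes and 0 of the 7. DESeq2 called 49 of 7241 genes (0.677%), with none of the 5 of these genes for which it gave an adjusted p, and limma voom with quality weights called 848 of 8571 (9.89%), with Trpm7 among them (log2 fold change 0.61, adjusted p = 0.0812). The 3 genes under the filter, Piezo2, Trpv3 and Stim2, were not among the 504 of 17803 genes (2.83%) called in the fit of all genes with a count. The median log2 fold change of the 7 genes was 0.31, beside 0.02 for all 8571, of which 52.7% had a positive estimate.

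**Figure D3:**
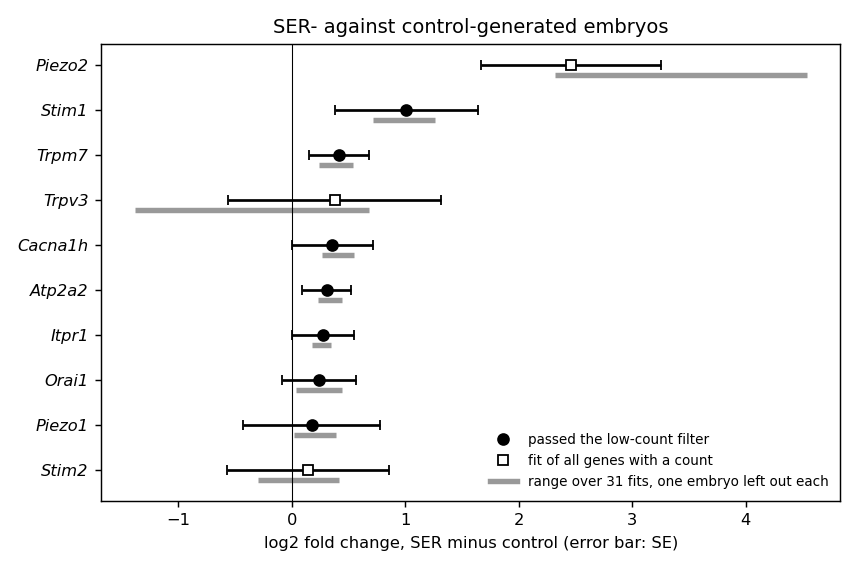
Log2 fold change of each gene, SER minus control, with its standard error, from edgeR. Filled circles are genes that passed the low-count filter, open squares are from the fit of all genes with a count, and grey bars give the range with each of the 31 embryos left out. Piezo2 lies at 2.46, and the grey bars of Trpv3 and Stim2 cross 0.

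Levels between genes were compared as CPM per kilobase of exon over the 31 embryos. In this scale Atp2a2 was highest at 42.5 ± 17.5 (SD, n = 31), followed by Orai1 at 24.9 ± 16.1 (SD, n = 31). Trpm7 was at 10.4 ± 5.77, Cacna1h at 6.76 ± 3.63 and Itpr1 at 4.47 ± 2.13 (SD, n = 31 each). A lower tier held Piezo1 at 1.40 ± 1.21, Stim1 at 1.33 ± 1.41, Stim2 at 1.16 ± 1.27, Piezo2 at 0.80 ± 1.09 and Trpv3 at 0.52 ± 1.21 (SD, n = 31 each). The step from Itpr1 to Piezo1 was the only one between neighbours in this order that was larger than the SD of the difference within embryos, and Itpr1 was the higher of that pair in 29 of 31 embryos. Piezo1 and Stim1, and likewise Stim1 and Stim2, stood in each order in 15 embryos. With the longest transcript in place of all exon bases, the level of Trpm7 was 16.5, of Itpr1 8.29, of Stim1 3.16 and of Piezo2 1.29, so that Itpr1 changed places with Cacna1h, Stim1 with Piezo1 and Piezo2 with Stim2 (1.21).

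Within each family the share of a gene was taken per embryo from length-scaled counts, which needs no scaling to library size. Where a family has few counts, depth still affects which genes are seen and so the share. In the PIEZO family the median share of Piezo2 was 5.00% over the 15 control embryos with a count of either gene and 42.9% over the 14 such SER embryos. Piezo2 made up more of the family than Piezo1 in 3 of these 15 control- and 6 of these 14 SER-generated embryos. Of the 3 control embryos, replicates 3 and 16 had 1 and 2 Piezo2 counts and none of Piezo1, while the 6 SER embryos had 24 to 115 Piezo2 counts. Shares ran from 0% to 100% in the control and from 0% to 97.1% in the SER group, and they were not tested. Piezo1 counts can include reads of Ctu2, as given above. Per kilobase of exon, the mean Piezo2 level was 0.25 ± 0.79 CPM (SD, n = 16) in control- and 1.39 ± 1.07 CPM (SD, n = 15) in SER-generated embryos.

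Of the other families, 4 had 1 leading gene in both groups. The median share of Trpm7 against Trpm6 was 100% in both, that of Cacna1h among the T-type pores 93.5% in control- and 89.0% in SER-generated embryos, that of Orai1 among the ORAI genes 89.3% and 86.8%, and that of Atp2a2 among the SERCA genes 93.8% and 97.4%. The inositol trisphosphate receptors were mixed. Itpr1 had a median share of 41.5% and 47.1%, Itpr2 of 22.9% and 22.1%, and Itpr3 of 31.9% and 21.2%. For the sensors, the median share of Stim1 was 37.3% in control- and 68.0% in SER-generated embryos, over a range of 0% to 100% in both groups.

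**Figure D4:**
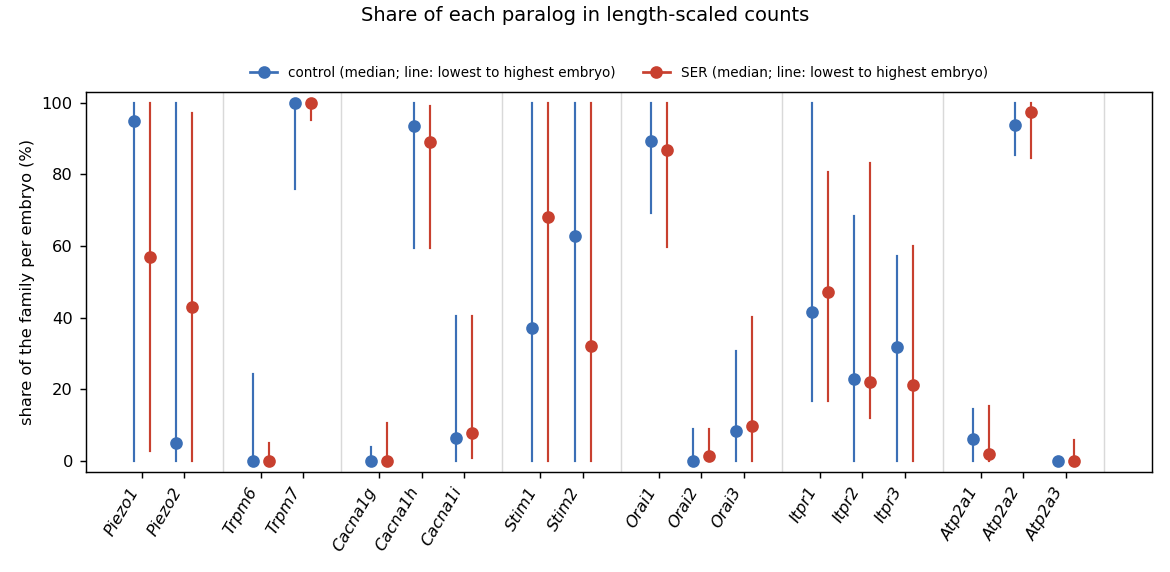
Share of each gene in the length-scaled counts of its family, in percent, with the group median as a point and a line from the lowest to the highest embryo, for control (blue) and SER (red). Trpm7, Cacna1h, Orai1 and Atp2a2 lead their families in both groups, while the PIEZO and STIM shares span nearly the whole axis.

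Across the 31 embryos, with group means removed from TMM-scaled log2(CPM + 1), several of these genes varied together or in opposition. These values describe embryos that also share depth and RNA composition, and carry no test. Embryos may also share a batch, which the labels do not name, and this cannot be told apart from co-variation of the genes. Trpm7 ran against Cacna1h (Spearman's rho −0.64, Pearson's r −0.46, and −0.40 without the 2 farthest embryos) and against Atp2a2 (rho −0.56, r −0.66, and −0.55 without the 2 farthest), whereas Cacna1h and Atp2a2 ran together (rho 0.60, r 0.49, and 0.69 without them). Trpm7 and Stim1 ran together (rho 0.51, r 0.51, and 0.43 without them). Piezo2 had its highest positive rho with Atp2a2 (0.44), where r of 0.35 was 0.16 without the 2 farthest embryos, and its most negative with Stim1 (−0.39). The oocyte marker sum had a rho of −0.61 with Piezo1, −0.52 with Trpm7 and 0.17 with Piezo2.

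**Figure D5:**
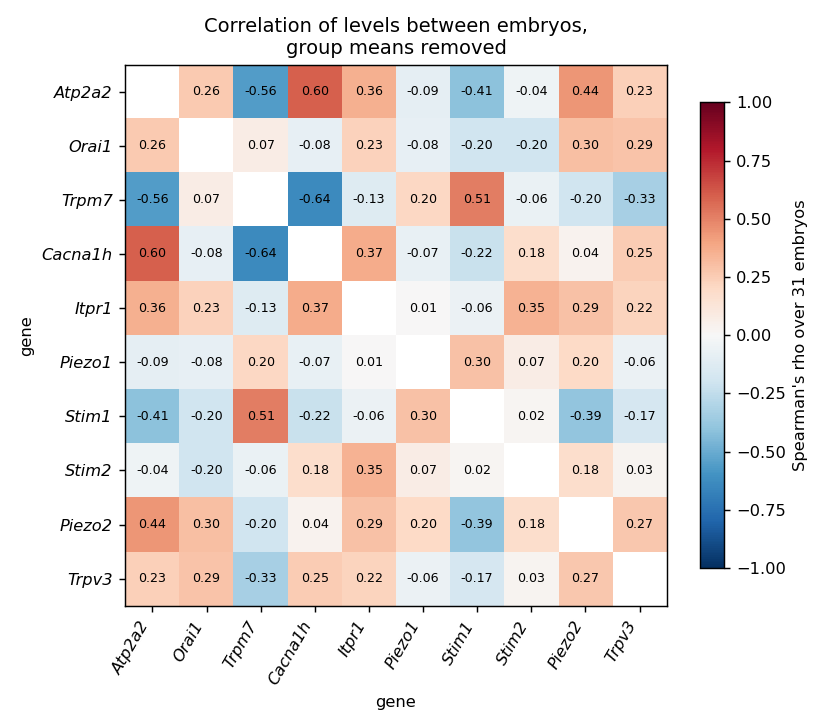
Spearman's rho between the levels of each pair of the 10 genes over 31 embryos after the group means were removed, as a colour from negative to positive with the value in each cell. Trpm7 is negative with Cacna1h (−0.64) and Atp2a2 (−0.56), and Cacna1h and Atp2a2 are positive with each other (0.60).

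The genes whose levels ran most like Piezo2 over the 31 embryos, among 8571 genes, were Pum2, a translational repressor (rho 0.60), Ttc19, an assembly factor of respiratory complex III (0.59), Eml5, a microtubule-associated protein (0.58), Usp17lc, a deubiquitinase of a multicopy family and one of the zygotic activation markers (0.58), and Septin2, a cytoskeletal GTPase (0.57). Septin2 had a rho of 0.49 within the control and 0.84 within the SER group. None of these 5 was called between groups, with log2 fold changes of 0.03 to 0.42 and adjusted p of 0.958 to 0.997. Counts of Usp17lc are uncertain where copies of the family share reads. Trpm7 had a closer likeness, with Utp14a, of ribosomal RNA processing (rho 0.88), Tnpo3, a nuclear import receptor (0.87), and Tgs1, which methylates the cap of small nuclear RNAs (0.87). Atp2a2 ran with Pou4f1 (0.83), Slc6a7 (0.81) and Ybx2, an RNA-binding protein of germ cells (0.80), and Cacna1h with Caskin2 (0.82), Jag2 (0.82) and Sgsm1 (0.80). The closest were Ddx3x for Orai1 (0.78), Dxo for Piezo1 (0.77), Sun1 for Stim1 (0.75), C2cd3 for Itpr1 (0.73) and Smtn for Stim2 (0.72). Likeness here, too, cannot be told apart from a shared batch.

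The wider machinery of calcium and zinc at egg activation was taken from 10 lists, which together hold 149 genes with a count. Of these, 61 passed the filter, 0 were called (2 at an unadjusted p under 0.05), and 31 had a higher and 30 a lower estimate, with a median log2 fold change of 0.01. The 2 genes were Tmem150c, a modulator of mechanically activated currents, at 1.07 (SE 0.52, adjusted p = 0.869), and Slc30a5, a zinc transporter of the secretory pathway, at 0.71 (SE 0.34, adjusted p = 0.868). Among mechanosensitive channels and PIEZO modulators, 4 of 16 genes passed the filter, and the highest level per length was that of Tmem120a, with a log2 fold change of −0.18 (SE 0.30). Among TRP channels, 4 of 28 passed, with 3 higher and 1 lower estimate, and Pkd2l2, a polycystin family gene, was highest per length with −0.42 (SE 0.38). Among voltage-gated calcium channels 3 of 18 passed, with the beta subunit gene Cacnb3 at −0.55 (SE 0.46). The store-operated entry list had 3 of 9 genes past the filter, with 3 higher estimates.

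Of release channels and genes listed with them, 7 of 13 in the table passed the filter, with 3 higher and 4 lower estimates. Itprid2, which is not itself a channel, was highest per length (−0.03, SE 0.30). Of phospholipase C and inositol phosphate enzymes, 7 of 19 passed, with 6 higher estimates and Itpkc, a kinase of inositol trisphosphate, at 0.58 (SE 0.47). Of pumps and exchangers, 5 of 17 passed, with 4 higher estimates, and Tmbim6, a protein of endoplasmic reticulum calcium leak, was at 0.01 (SE 0.26). None of these genes was called.

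The other 88 of the 149 genes had values only in the fit of all genes with a count, in which 3 were called higher and 7 lower, where 0.792% of all genes were called higher and 2.04% lower. These shares are over all 17803 genes, including those that passed the filter. A share over the genes under the filter alone was not taken, so the 88 genes have no like background here. Each of these 10 calls stood on counts in few embryos. Trpc6 had 42 counts in 6 SER- and 2 counts in 1 control-generated embryo. Trpc7, of the same channel family, had 24 counts in 4 control- and none in SER-generated embryos. Plcz1, whose product starts the oscillations, had 12 counts in 1 control embryo and none elsewhere. Atp2a3 had 44 counts in 2 SER embryos, 43 of them in 1, against 1 count in a control embryo, and Trpv5 had 15 counts in 2 SER embryos. Itprid1, Rcn1, Stoml3, Itpkb and Slc8a3 had 17, 16, 8, 6 and 5 counts in 2 or 3 control embryos each and none in SER embryos. Of the 504 calls over all genes, 262 (52.0%) were of genes with a count in 3 or fewer embryos and 82 of genes with a count in at least 10.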

How the data were processed

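Single 2-cell embryos were sequenced by Smart-seq3, whose 5′ reads carry a molecular identifier and whose internal reads do not. The authors used STAR (mm10 per the labels) for alignment, UMI-tools and Picard for duplicates and FeatureCounts for counting. The deposited values are whole-number counts per gene, without normalization or batch correction. The annotation, strand setting and tool versions are not given in the sources used here. The study's own comparison used ComBat-seq and DESeq2, and its batches are not named per embryo, so no batch term was used.

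The comparison of both groups used the quasi-likelihood test of edgeR 4.0.16 in R 4.3.3, with TMM normalization and Benjamini-Hochberg adjustment over all genes of a fit, at an adjusted p under 0.1. Genes came from the fit of 8571 genes kept by filterByExpr (minimum count 10, total 15), or else from the fit of 17803 genes with a count. The scripts were tested on simulated data. GENCODE vM21 (GRCm38) gave gene positions and exon lengths, and 20013 of 20544 symbols matched it. The alternatives were other size factors, filters, DESeq2 1.42.0, limma voom (limma 3.58.1), robust dispersion, estimated clusters, 5 surrogate variables (sva 3.50.0), ComBat-seq on the clusters, library total as a covariate, thinning, a replicate block, an adjusted p under 0.05, the longest transcript as length, and leaving out each embryo. The named genes were the 10 genes, the called and the highest gene of each list, and the 5 (Piezo2) or 3 genes most alike over the embryos. The genes and lists were chosen with earlier results of these data known.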

Additional observations from a re-analysis of the deposited data

How the results depend on the processing

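The number of genes called among filtered genes, 0 by edgeR, was 49 with DESeq2, 848 with limma voom, 41 with estimated clusters, 7 with 5 surrogate variables, 174 with ComBat-seq on the clusters and DESeq2, and 504 without a filter, and 0 with each embryo left out. The 504 calls over all genes with a count became 3 with a count required in at least 10 embryos, 45 with DESeq2, 81 with limma voom, 299 with surrogate variables, 144 with ComBat-seq and DESeq2, 274 with library total as a covariate, 30 after thinning and 3 at an adjusted p under 0.05, and 326 (without control replicate 5) to 570 with each embryo left out. Piezo2 kept its direction in each alternative that gave a value. It passed in 5 of these: with limma voom (2.91), estimated clusters (3.54) and surrogate variables (4.29), with the replicate block given below, and without the 3 libraries that stand apart (2.44). That last fit leaves out SER replicate 15, which had no Piezo2 count, and is no support. The adjusted p of Piezo2 was highest, 0.476, with a count required in at least 10 embryos, and 0.253 with ComBat-seq and DESeq2. DESeq2 gave no adjusted p for Piezo1, Piezo2, Stim1, Stim2 and Trpv3. With an embryo left out its log2 fold change was 2.32 to 4.54. The share of embryos with a Piezo2 count differed by 23.8 points as deposited and by 32.0 to 40.5 points at equal depth with an embryo left out.

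Same-numbered embryos were not treated as pairs in the main fit. Of 15 such pairs, 8 had a correlation over 0.1 (−0.37 to 0.49), and 2 SER embryos correlated best with their own number. The median correlation was 0.11 for same-numbered and −0.004 for other pairs, a difference that was not tested. The replicate block gave 7 calls over all 17803 genes, Piezo2 at 3.85 (adjusted p = 0.0165), Piezo1 at −0.056, Trpv3 at −0.88 and Stim2 at −0.23.

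Estimates of uncalled genes turned negative for Piezo1 with limma voom (−0.20), clusters (−0.038), surrogate variables (−0.50) and ComBat-seq (−0.11). They did so for Trpv3 with limma voom (−1.57), clusters (−0.27), surrogate variables (−0.88), ComBat-seq (−0.66) and library total (−1.14) and without SER replicate 13 (−1.38, to 0.68 with others left out), and for Stim2 with limma voom (−0.55), surrogate variables (−0.17) and thinning (−0.29) and without SER replicate 1 (−0.30, to 0.41 with others left out). Orai1 was −0.14 with library total and Itpr1 −0.15 with limma voom. Trpm7, Cacna1h, Stim1 and Atp2a2 kept their direction in each alternative that gave a value. The cause of these shifts was not tested. The filter of 10 embryos and the removal of 3 libraries were chosen after seeing the data. Reads without a molecular identifier add error beyond counting.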

Other observations

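Outside the channels, the lists of the calcium store and of zinc gave no call among genes that passed the filter on low counts. Of mitochondrial calcium uptake genes, 10 of 11 passed this filter, with 3 higher and 7 lower estimates in SER-generated embryos and a median log2 fold change of −0.32, beside 0.02 over all filtered genes. The highest level per length was that of Vdac1, a channel of the outer mitochondrial membrane, with 77.1 ± 21.6 CPM per kilobase of exon (SD, n = 31) and a log2 fold change of −0.02 (SE 0.17). Of calcium-binding proteins of the store and cytosol, 12 of 14 passed, with 4 higher and 8 lower estimates and a median of −0.01, and Rcn1, which did not pass, was called lower in the fit of all genes with a count. Calm2, a calmodulin gene, was highest per length at 342 ± 131 CPM per kilobase (SD, n = 31), with a log2 fold change of −0.10 (SE 0.22). Of zinc transporters, 6 of 8 passed, with 2 higher and 4 lower estimates and a median of −0.15, and Slc39a6, a zinc importer, was highest per length, with a log2 fold change of −0.18 (SE 0.21).

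Among marker lists, 11 of 12 oocyte genes passed the filter with 3 higher and 8 lower estimates (median −0.26), and 11 of 13 zygotic activation genes with 10 higher and 1 lower (median 0.22). No gene of either was called, in the filtered fit or over all genes. In the fit of all genes with a count, where 2.83% of genes were called, the sperm markers Smcp (41 counts) and Odf1 (23 counts) were called higher, each with counts in 3 SER- and no control-generated embryos. Of the cumulus cell markers, Cd44 was called higher, with 34 counts in 2 SER embryos and 31 of them in 1, and Cyp11a1, Inhba, Fst and Inha were called lower. Of the control counts of these 4 genes, 927 of 1133 of Cyp11a1, 78 of 109 of Inhba, 66 of 74 of Fst and 35 of 39 of Inha lay in 1 embryo.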
